A study of Homo sapiens with 3 samples.

Results

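The 32 genes described here encode the DNA damage checkpoint and the core of non-homologous end joining, and 4 of them had a YTHDC1 peak at a start. The genes come from a list of pathway members whose rule uses no measured value, although the list was drawn up with earlier results of these data known, and all 32 were found among the 20162 protein-coding genes of the annotation. The checkpoint genes fall into apical kinases with their activators, the 9-1-1 clamp with its loader, fork protection factors with the effector kinases, chromatin mediators, and the switch that controls entry into mitosis. The other 9 genes act in end joining, and PRKDC, which is an apical kinase and also an end joining factor, was counted with the kinases. A gene was counted as having a start peak if a peak overlapped, by 1 base or more, the 200 bases on either side of any of its annotated transcript starts.

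When DNA is broken or a replication fork stalls, the kinases ATM, ATR and DNA-PKcs are activated at the lesion and phosphorylate effector kinases and chromatin proteins. The effector kinases CHK1 and CHK2 act on CDC25 phosphatases, which together with the opposing kinase WEE1 set the activity of CDK1 and so the entry into mitosis. Non-homologous end joining captures the ends with Ku, processes them and seals them with a ligase complex, without a template. YTHDC1 is a reader of N6-methyladenosine (m6A), an RNA modification, in the nucleus, and is also found on chromatin.

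YTHDC1 occupancy was measured by ChIP-seq in A549, an established lung adenocarcinoma line, in 3 replicates of a single group that was neither treated nor depleted of YTHDC1. The 3 replicates were pooled by the authors before broad peaks were called, which gave 1 set of 6368 peaks on hg19. No value per replicate could therefore be given, and no spread between replicates, test or comparison of conditions was possible. The depth of the libraries is unknown, no input or IgG library was analysed here, and the labels and methods do not say of these 3 replicates whether they were separate cultures.

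Each peak carries a single value from the authors' caller. It was taken to be the q-value as −log10, because its lowest value, 0.61, lies just above −log10 of the broad cutoff of 0.25. All 6368 peaks had a median −log10 q of 1.33 and a median width of 348 bases. The 2998 peaks at starts of protein-coding genes had a median −log10 q of 1.39 (quartiles 1.02 and 1.95) and a median width of 373 bases (quartiles 278 and 516), and 55.6% of them had a q-value under 0.05.

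A start peak was found in 4 of the 32 members, which is 12.5% (95% Wilson interval 4.97 to 28.1), against 15.7% of all protein-coding genes (3163 of 20162). The 4 genes were HUS1, TIMELESS, WEE1 and CDC25C. When only the canonical start of each gene was used, 2 members remained, HUS1 and TIMELESS, a share of 6.25% (1.73 to 20.1) against 11.7% of all protein-coding genes. The interval of the members held the background share in both counts.

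Away from their starts, 3 members held a peak inside the gene record, namely RAD9A, H2AX and LIG4, a share of 9.38% (3.24 to 24.2) against 8.66% of all protein-coding genes. The peak of H2AX lay at the 3' end of the gene, the only such case among the members, a share of 3.12% (0.554 to 15.7) against 1.14% of all protein-coding genes. Counting any peak in the gene or within 1000 bases of it gave 7 of 32 members, or 21.9% (11.0 to 38.8), against 25.1% of all protein-coding genes. The remaining 25 members had no peak in or near the gene. All intervals treat the genes as a random draw, which this list is not, and leave out the variation between experiments.

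Members had more annotated starts than other genes, with a median of 8.5 against 5, and a gene with more starts has more windows in which a peak can fall. Among protein-coding genes with at least as many starts as the member median, 23.6% had a start peak (1449 of 6143). Of the 16 members with that many starts, 2 had one (12.5%, 3.50 to 36.0). The members were also longer, at a median of 41821 bases against 27220.

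**Figure D1:**
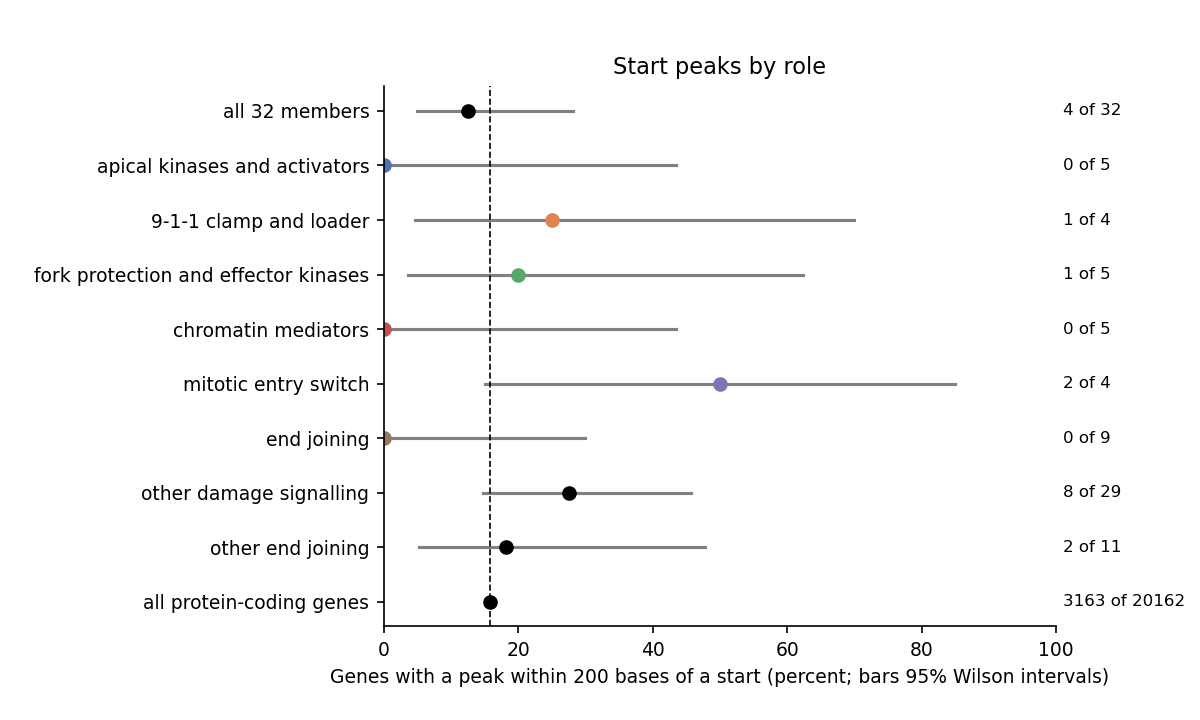
Share of genes with a peak within 200 bases of any annotated start, in percent on the x axis, for the 32 members, their 6 roles, 2 lists of other pathway genes and all protein-coding genes; points are shares, bars are 95% Wilson intervals and the dashed line marks the share of all protein-coding genes, 15.7%. No gene of the apical kinases, chromatin mediators or end joining had a start peak, while 2 of the 4 mitotic entry genes did.

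The stretches below come from 4 member peaks and are parts that no annotated transcript uses as an untranslated or non-coding exon, cut at TIMELESS to the central 300 of 399 such bases. They show what lay under the peaks, from GC-rich promoter DNA at HUS1 and CDC25C to the coding sequence of LIG4. They were read from the GRCh37 reference on the strand of the gene, 5′ to 3′, and capitals mark matches on either strand to short promoter motifs, which are GGGCGG (the GC box), GGCGGGA (the letters of an E2F element), CCGGAAG (the ETS core), CCAAT and TTTGAA, and GGACT, an m6A sequence context, on the gene strand only. The HUS1 stretches are chr7:48019213-48019414, upstream of the canonical start, and chr7:48018852-48019006, downstream of it. The TIMELESS stretch, chr12:56842745-56843044, lies in intron 1, the CDC25C stretch, chr5:137674045-137674205, lies upstream of the first base of the CDC25C record, and the LIG4 stretch, chr13:108861970-108862201, is the whole peak in exon 3. The CDC25C stretch lies downstream of the canonical start of FAM53C, a gene on the opposite strand. The GGACT marked in it is thus outside the CDC25C record and not on the strand of FAM53C.
HUS1 upstream: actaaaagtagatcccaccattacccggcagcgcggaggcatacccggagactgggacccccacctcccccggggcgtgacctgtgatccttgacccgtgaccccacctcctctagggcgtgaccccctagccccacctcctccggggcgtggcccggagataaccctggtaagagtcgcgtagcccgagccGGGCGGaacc
HUS1 downstream: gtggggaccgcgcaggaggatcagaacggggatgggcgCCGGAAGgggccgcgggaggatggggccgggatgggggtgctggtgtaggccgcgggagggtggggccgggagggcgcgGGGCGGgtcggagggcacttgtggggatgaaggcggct
TIMELESS intron 1: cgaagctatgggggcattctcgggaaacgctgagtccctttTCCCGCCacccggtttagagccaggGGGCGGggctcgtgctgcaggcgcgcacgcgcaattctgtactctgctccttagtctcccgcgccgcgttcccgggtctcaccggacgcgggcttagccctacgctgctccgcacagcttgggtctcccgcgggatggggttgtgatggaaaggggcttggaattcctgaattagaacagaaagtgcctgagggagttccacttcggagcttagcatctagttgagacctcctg
CDC25C upstream: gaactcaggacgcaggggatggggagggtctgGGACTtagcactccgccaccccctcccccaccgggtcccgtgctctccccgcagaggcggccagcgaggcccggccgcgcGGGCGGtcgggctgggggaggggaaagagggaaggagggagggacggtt
LIG4 exon 3: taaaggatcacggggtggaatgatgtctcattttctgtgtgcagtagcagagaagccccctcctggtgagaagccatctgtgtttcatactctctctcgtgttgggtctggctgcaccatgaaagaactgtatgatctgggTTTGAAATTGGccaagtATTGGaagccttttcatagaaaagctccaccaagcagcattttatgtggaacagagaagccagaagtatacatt

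The GC share of these stretches was 67.3% and 76.1% at HUS1, 61.3% at TIMELESS, 73.9% at CDC25C and 45.3% at LIG4. The GC box letters occurred in each of the stretches except that of LIG4. The 161 bases at CDC25C held 14 CpG dinucleotides, whereas the 232 bases at LIG4 held 2.

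**Figure D2:**
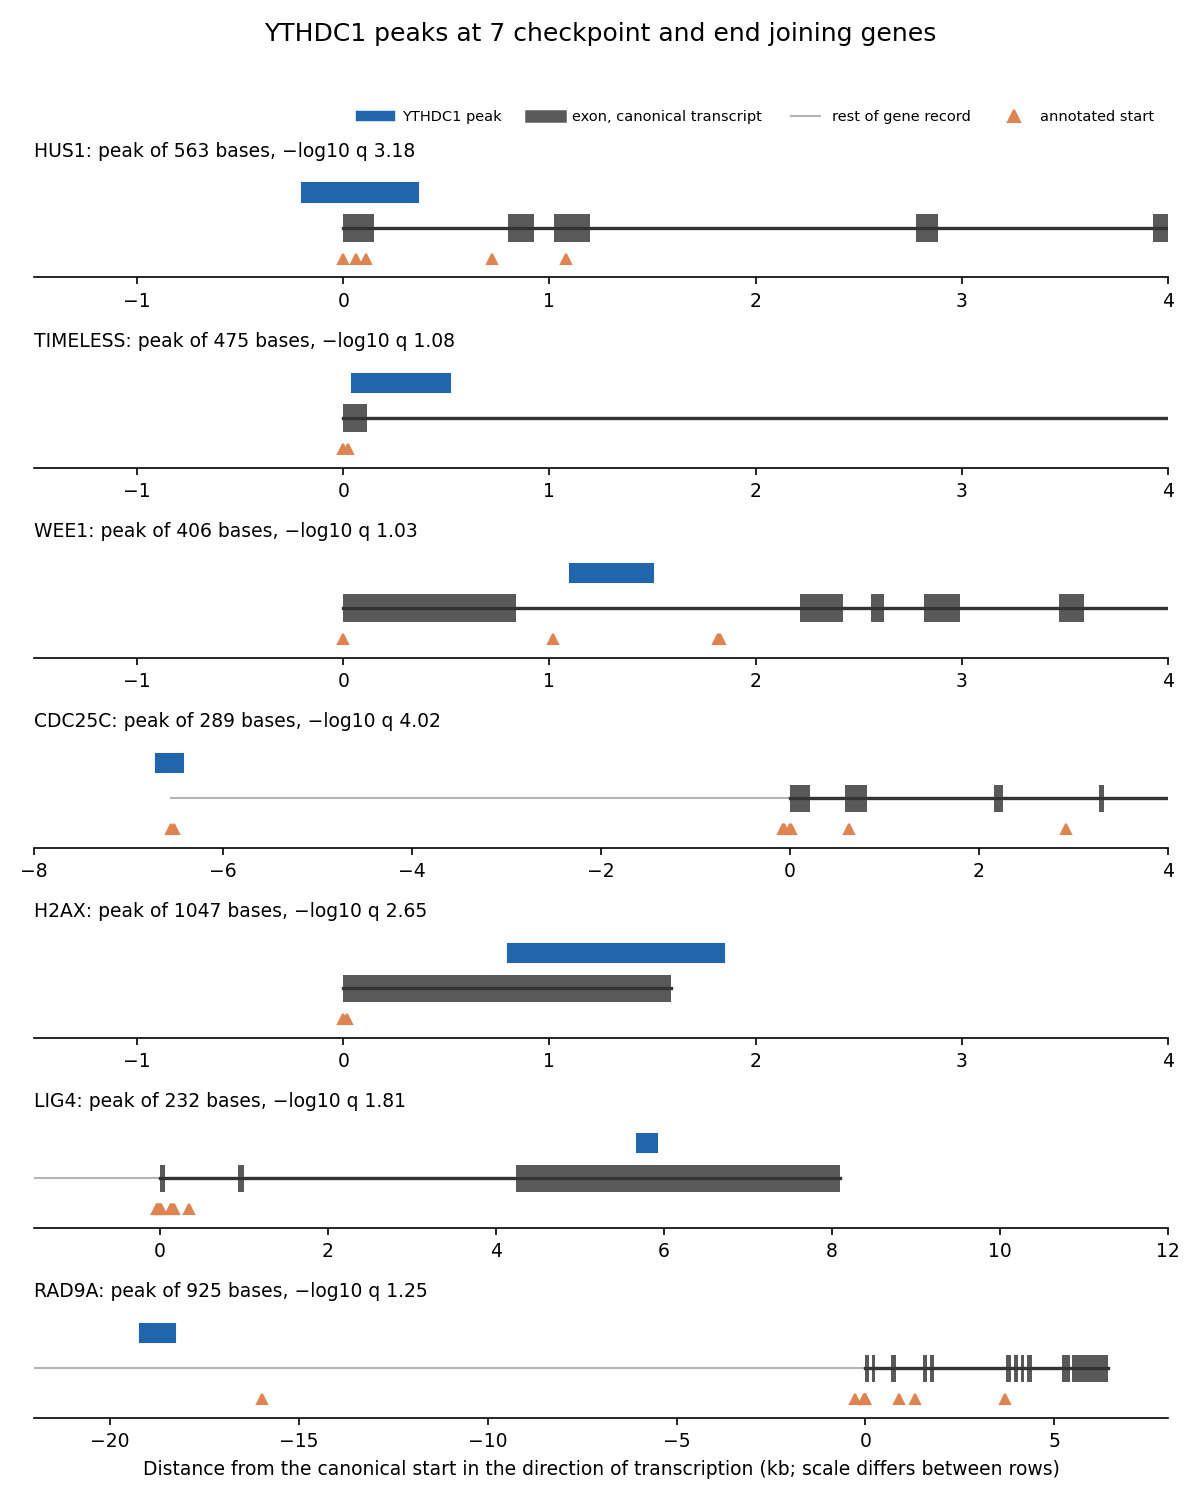
The 7 members with a peak, each drawn along the direction of transcription with distance from its canonical start in kb on the x axis; blue blocks are YTHDC1 peaks, dark boxes exons of the canonical transcript, grey lines the rest of the gene record (cut at the axis limits) and triangles annotated starts. The peak of HUS1 covers its canonical start, those of WEE1 and CDC25C lie at other starts, and that of H2AX covers the gene end. Those of LIG4 and RAD9A lie away from any start of their own gene, although starts of CLCF1 and ENSG00000256514 lie in the RAD9A peak or within 200 bases of it.

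Among the apical kinases and their activators, none of the 5 genes had a peak at a start, in the gene or near it. In all protein-coding genes these shares were 15.7%, 8.66% and 25.1%. With 0 of 5, a share of up to 60.0% is allowed (Wilson limit 43.4%), so the group is too small for the absence to stand apart from the background. ATM, the kinase activated by double-strand breaks, has 42 annotated starts, the most of the members, and its nearest peak lay 213418 bases from one of them. For PRKDC, the catalytic subunit of DNA-PK, this distance was 41006 bases, and for ATRIP, the partner that brings ATR to single-stranded DNA, it was 137218 bases. The activators of ATR were farther from any peak, with 701706 bases for TOPBP1 and 962902 bases for ETAA1.

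HUS1, a subunit of the ring-shaped 9-1-1 clamp that is loaded at damaged DNA, had the only member peak that covered a canonical start. The peak (chr7:48018852-48019414) was 563 bases wide with a −log10 q of 3.18, a q-value of 0.000668, which ranked 457 of the 6368 peaks. It ran from 202 bases upstream to 360 bases downstream of the canonical start and covered exon 1, including 52 coding bases. Its −log10 q was higher than that of 93.2% of start peaks and its width larger than that of 80.3%. Other annotated HUS1 starts, 62 and 111 bases downstream, also lay inside it.

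RAD9A, another subunit of the clamp, held a peak only by the extent of its gene record. The peak (chr11:67140255-67141179, 925 bases, −log10 q 1.25, q-value 0.0559) lay 18740 bases upstream of the canonical start and inside the record only through a single long transcript. Starts of CLCF1, which encodes a cytokine, and of the gene ENSG00000256514 lay in this peak or within 200 bases of it. RAD1, the third subunit, and RAD17, which loads the clamp, had no peak, and their starts lay 698747 and 274707 bases from the nearest one. In this role 1 of 4 genes had a start peak (25.0%, 4.56 to 69.9), against 15.7% of all protein-coding genes.

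TIMELESS, which forms the fork protection complex with TIPIN, had a peak that began just downstream of its start (chr12:56842695-56843169, 475 bases, −log10 q 1.08, q-value 0.0835). It spanned 41 to 515 bases downstream of the canonical start, with 76 bases in exon 1 and the rest in intron 1. The closest start, an alternative one, lay 18 bases from its edge. TIPIN itself had no peak within 99676 bases of a start.

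The effector kinase genes and CLSPN had no peak. Their starts lay 55379 bases from the nearest peak for CHEK1, the kinase downstream of ATR, 183472 bases for CHEK2, the kinase downstream of ATM, and 113033 bases for CLSPN, the adaptor through which ATR reaches CHK1. In this role 1 of 5 genes had a start peak (20.0%, 3.62 to 62.4), an interval that held the 15.7% of all protein-coding genes.

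H2AX, the histone variant phosphorylated around double-strand breaks, had a wide peak at its 3' end and none at its start. The peak (chr11:118964331-118965377) was 1047 bases wide with a −log10 q of 2.65 and a q-value of 0.00225. Only 1.85% of all peaks ranked at or above it by width, and 11.7% ranked at or above it by −log10 q. The gene is a single exon of 1592 bases, and the peak covered its last 794 bases, all of them 3' untranslated sequence, and no coding base. The other 253 bases of the peak lay beyond the gene end. Its near edge was 782 bases from the closest start, the shortest distance among the members without a start peak. A window of 500 bases still left H2AX out.

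The other chromatin mediators had no peak in or near the gene. MDC1, the adaptor that binds phosphorylated H2AX, lay farthest from any peak of the 32 members, at 2229642 bases from a start, and TP53BP1, a mediator that favours end joining over resection, at 916473 bases. The ubiquitin ligase genes RNF8 and RNF168 were 164837 and 71221 bases away. With 0 of 5 at a start, a share of up to 60.0% is allowed (Wilson limit 43.4%), which includes the 15.7% of all protein-coding genes.

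MDC1 lay in a stretch without any peak from 28442217 to 33756517 on chromosome 6, which is 5314301 bases long and contains the major histocompatibility complex. It held 188 protein-coding genes, more than any other of the 3416 stretches between neighbouring peaks that contained a gene without a peak. By length it ranked 52. Whether peaks could be called in this stretch as readily as elsewhere was not tested. The stretch around TP53BP1 was 2652475 bases long with 49 protein-coding genes. For the 25 members with no peak the median stretch was 766257 bases, against 747614 for the 15284 protein-coding genes counted in the same way.

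The mitotic entry genes had start peaks in 2 of 4 cases (50.0%, 15.0 to 85.0), an interval that held the 15.7% of all protein-coding genes, and neither peak was at the canonical start. WEE1, the kinase that holds CDK1 inactive, had a peak of 406 bases in intron 1 of its canonical transcript (chr11:9596316-9596721, −log10 q 1.03, q-value 0.0926). It lay 1099 to 1504 bases downstream of the canonical start and was counted through another protein-coding transcript, whose start is 1017 bases downstream and 82 bases from the peak. Among the members with a start peak, WEE1 had the peak farthest from a start.

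CDC25C, a phosphatase that activates CDK1, had the strongest member peak (chr5:137673917-137674205, 289 bases, −log10 q 4.02, q-value 9.57e-05, rank 263 of 6368). Its −log10 q was higher than that of 96.4% of start peaks, while its width was larger than that of 28.1%. The peak lay at a pair of upstream CDC25C starts, which are 6521 and 6551 bases before the canonical start, and its nearer edge was 6424 bases from the canonical start. It also covered 2 starts of FAM53C, a gene on the opposite strand, among them the canonical start of FAM53C. Of its 289 bases, 128 lay in the CDC25C record and 161 outside it.

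The canonical CDC25C start has another start of FAM53C only 131 bases away, and no peak was called at that pair. The 2 genes thus share starts at both positions, and the peak was found at the distal one. CDC25A and CDC25B, the related phosphatase genes, had no start peak. The nearest peak lay 349525 bases from a start of CDC25A and 4755 bases from a start of CDC25B.

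None of the 9 end joining genes had a start peak, and none of 10 when PRKDC was added. The latter allows a share of up to 30.0% (Wilson limit 27.8%) and so includes the 15.7% of all protein-coding genes. LIG4, the ligase that seals the ends, was the only one with a peak in the gene (chr13:108861970-108862201, 232 bases, −log10 q 1.81, q-value 0.0153). All of its bases lay in the coding sequence of exon 3, 5683 to 5914 bases downstream of the canonical start and 5333 bases from the closest start. The peak was narrow, wider than 3.10% of start peaks. Its GC share of 45.3% was the lowest of the 7 member peaks, whose highest was 76.5% at RAD9A, and its ratio of observed to expected CpG was 0.171.

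The starts of the other end joining genes lay between 5047 and 799175 bases from a peak. The closest were DCLRE1C, the nuclease Artemis, at 5047 bases, and the gap-filling polymerases POLL and POLM at 12011 and 18655 bases. The Ku subunit genes XRCC6 and XRCC5 were 76838 and 294902 bases away. XRCC4, the partner of the ligase, was 799175 bases away, and the scaffold genes NHEJ1 and PAXX were 57064 and 41211 bases away.

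**Figure D3:**
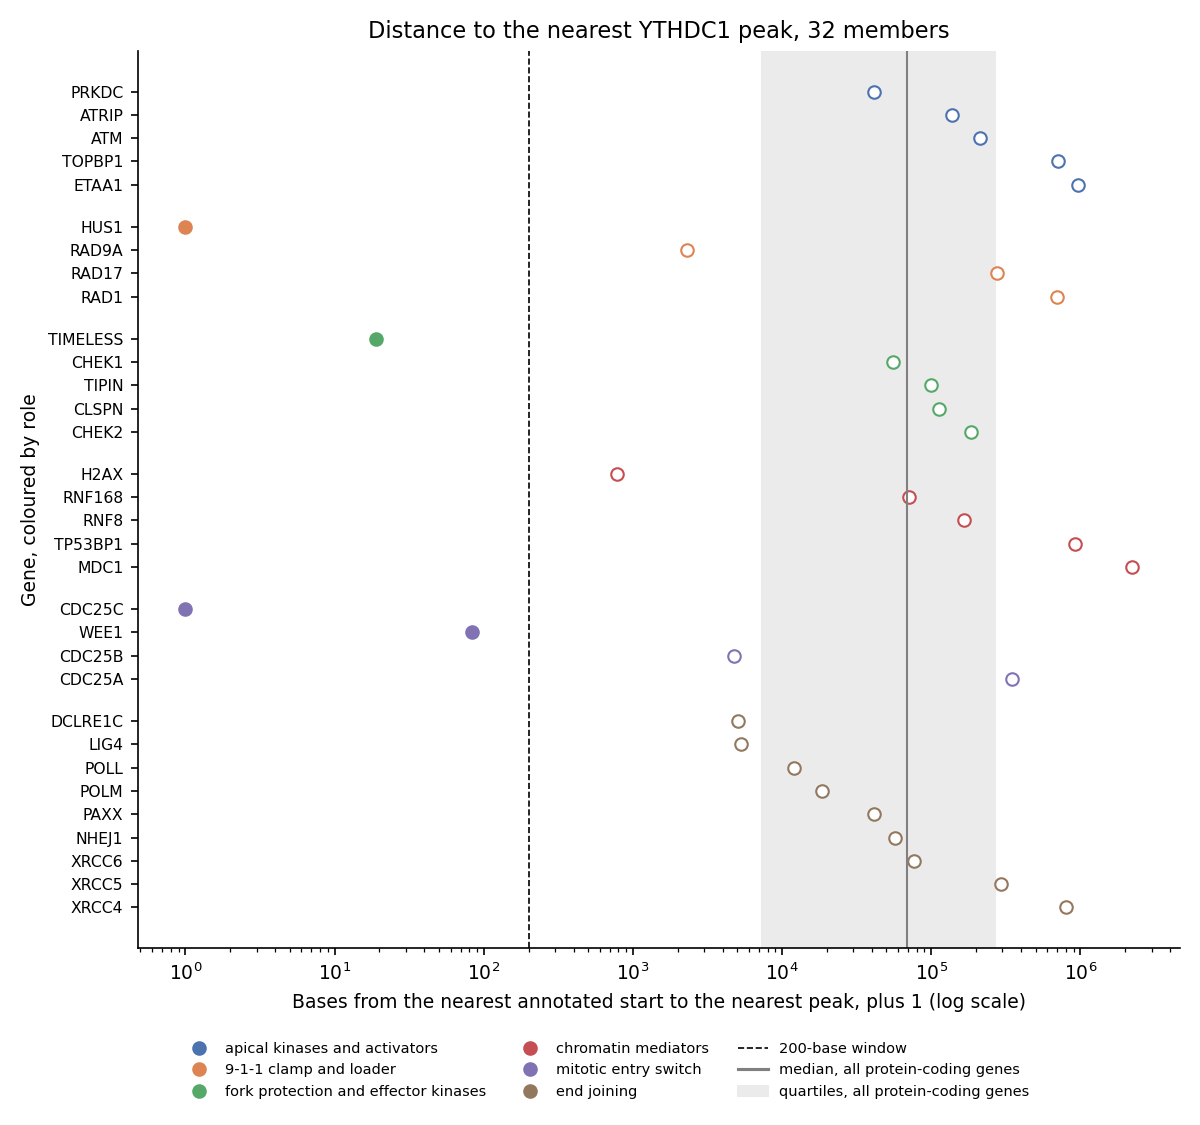
Distance in bases from the nearest annotated start to the nearest peak, plus 1, on a log x axis, for each of the 32 members grouped and coloured by role; filled points have a start peak, the dashed line is the 200-base window, and the grey band and line are the quartiles and median of all protein-coding genes. The 4 filled points lie between 0 and 82 bases, H2AX follows at 782, and MDC1 is farthest at 2229642.

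Over the 32 members, the median distance from a start to the nearest peak was 74029.5 bases, against 69008.5 for all protein-coding genes. For genes without a start peak it was 106354.5 bases in the 28 members and 105934 in the 16999 protein-coding genes of that kind, members included. A peak lay within 10000 bases of a start in 28.1% of members and 26.8% of all protein-coding genes. Inside the window the 4 distances were 0 bases for HUS1 and CDC25C, 18 for TIMELESS and 82 for WEE1. Outside it they were 782 for H2AX, 2305 for RAD9A and 4755 or more for the rest.

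The 4 start peaks had a median −log10 q of 2.13 and a median width of 440.5 bases, against 1.39 and 373 bases for all start peaks of protein-coding genes. HUS1 and CDC25C formed a stronger pair with q-values under 0.05, and TIMELESS and WEE1 a weaker pair with q-values above it. Among all start peaks 55.6% had a q-value under 0.05, so 2 of 4 lay near that share. Of the 7 member peaks, 4 had a q-value under 0.05, with H2AX and LIG4 joining the stronger pair, against 52.1% of all 6368 peaks. Widths ranged from 232 bases at LIG4 to 1047 at H2AX.

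**Figure D4:**
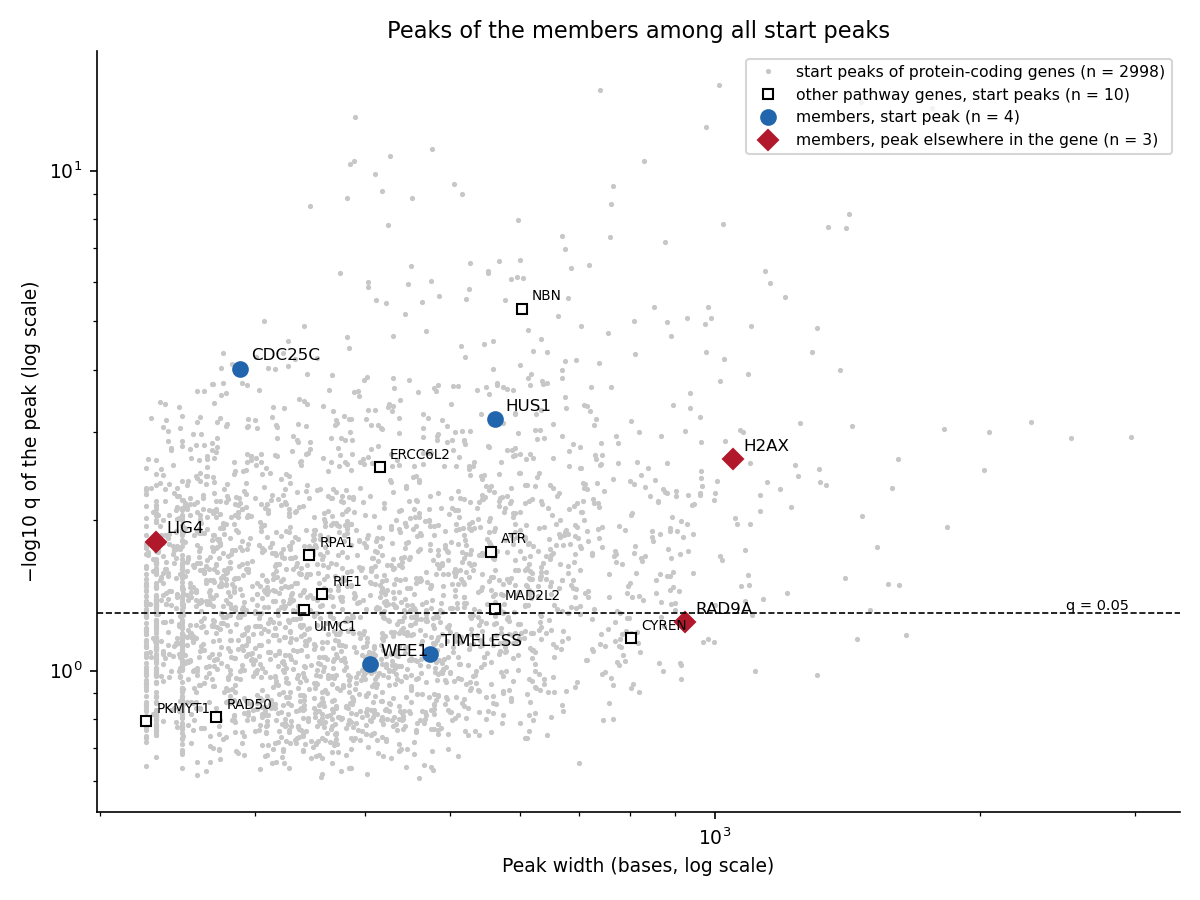
Width in bases (x, log scale) against −log10 q (y, log scale) of the 2998 start peaks of protein-coding genes in grey, the 4 start peaks of members as blue circles, the 3 other member peaks as red diamonds and the 10 start peaks of other pathway genes as open squares; the dashed line is a q-value of 0.05. CDC25C at 4.02 and HUS1 at 3.18 lie high among the start peaks, TIMELESS at 1.08 and WEE1 at 1.03 lie under the line, and H2AX is the widest member peak at 1047 bases.

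The promoters of the members, taken from 250 bases before to 50 after the canonical start, had a median GC share of 64.3% against 63.5% in all protein-coding genes, and a CpG ratio of 0.871 against 0.773. In all protein-coding genes with a start peak these medians were 66.7% and 0.862. A start of a gene on the opposite strand within 1000 bases, in a divergent arrangement, was found for 12 of 32 members (37.5%), against 24.3% of all protein-coding genes. These pairs included ATM with NPAT, PRKDC with MCM4, MDC1 with TUBB, CHEK2 with HSCB, XRCC6 with DESI1 and CDC25C with FAM53C. Of the 12, only CDC25C had a start peak, and that peak lay 6424 bases from the canonical start at which the partner was sought. Among all protein-coding genes, 1012 of the 4907 with such a partner had a start peak.

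CCAAT was present on either strand in 20 of the 32 promoters (62.5%), against 35.9% of all protein-coding promoters. GGGCGG was present in 26 (81.2% against 60.9%), GGCGGGA in 12 (37.5% against 21.2%) and CCGGAAG in 10 (31.2% against 14.0%). Promoters of all genes with a start peak held CCAAT in 32.5%, GGGCGG in 73.5%, GGCGGGA in 25.6% and CCGGAAG in 23.0%. GGGCGG and GGCGGGA can overlap, so these counts are not independent.

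TTTGAA, the core of the element that restricts expression to G2 and mitosis, was found in 5 members (15.6% against 11.6%), namely ATM, H2AX, MDC1, WEE1 and CDC25C. TATAAA was found only in H2AX (3.12% against 9.76%). GGACT, read on the gene strand only, was found in 8 (25.0% against 25.8%). In this window around the canonical start, none of the 4 members with a start peak held CCGGAAG, 4 held GGGCGG and 3 held CCAAT. The CCGGAAG marked in the HUS1 peak lies downstream of the window. The peaks of WEE1 and CDC25C lie wholly outside it, so these counts do not describe the DNA under them. These are matches of letters and not measured sites.

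Other genes of the same pathways were counted in the same way. Of 40 such genes, 10 had a start peak (25.0%, 14.2 to 40.2), against 15.7% of all protein-coding genes. When only the canonical start was used, 5 of the 40 had a peak (12.5%, 5.46 to 26.1), against 11.7%. A peak in or near the gene was found in 16 (40.0%, 26.3 to 55.4), against 25.1%. That interval lay above 25.1% but held the 34.0% of protein-coding genes with at least as many starts as the member median. The 40 genes had a median of 9.5 starts, against 5 in all protein-coding genes. The interval for a peak at any start overlapped that of the members (4.97 to 28.1). The difference was not tested because both lists were chosen with results known.

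In the damage signalling list 8 of 29 genes had a start peak (27.6%, 14.7 to 45.7). That interval held both the 15.7% of all protein-coding genes and the 23.6% of those with many starts. At the canonical start the count was 3 of 29 (10.3%, 3.58 to 26.4), against 11.7% of all protein-coding genes. Among the sensors, NBN, a subunit of the complex that senses breaks, had the strongest peak with a −log10 q of 5.30, while RAD50 of the same complex had 0.808. RPA1, which coats single-stranded DNA, had 1.70, with the peak shared with SMYD4. ATR, the kinase whose partner ATRIP had no peak, had a peak of 556 bases centred 14 bases from its canonical start with a −log10 q of 1.73.

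Downstream of these, RIF1, an effector of the TP53BP1 pathway, had a −log10 q of 1.42. UIMC1, a ubiquitin-binding subunit at breaks, had 1.32, and MAD2L2, a subunit of shieldin, had 1.33. A start of DRAXIN also lay in the MAD2L2 peak or within 200 bases of it. PKMYT1, the kinase that acts beside WEE1 on CDK1, had 0.792. The peaks of MAD2L2 and PKMYT1 lay 10270 and 10111 bases from the canonical starts of these genes. In the end joining list 2 of 11 genes had a start peak (18.2%, 5.14 to 47.7, against 15.7% of all protein-coding genes), CYREN, an inhibitor of end joining, with a −log10 q of 1.16 and ERCC6L2, a helicase-like factor, with 2.55.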

How the data were processed

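YTHDC1 ChIP-seq of A549 cells was analysed from the peak set that the authors deposited. In the study's methods, reads of 3 replicates were aligned to hg19 and pooled, and broad peaks were called with MACS2 (q-value 0.1, broad cutoff 0.25). The methods name Bowtie2 as aligner, whereas the submitters' notes name BWA beside deepTools and MACS2. The deposited value of each peak was read as −log10 of the q-value, which was inferred from the values. A merging step to which the peak names point is not described in the sources.

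Genes, transcripts and the GRCh37 sequence came from GENCODE release 44 mapped to that assembly, with copies in the pseudoautosomal part of Y dropped (64440 genes, 20162 of them protein-coding). All 6368 peaks lay within the ends of the 24 chromosomes. Coordinates count from 1. A start peak overlapped 200 bases on either side of any annotated start by 1 base or more. A peak in the gene overlapped the gene record but no start window, and a 3' end peak overlapped 200 bases on either side of the gene end. Canonical transcripts are those the annotation marks. Divergent partners had a start within 1000 bases on the opposite strand.

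The members and lists were chosen with earlier results of these data known, so no test was made and shares are read against those over all protein-coding genes. All 32 members are accounted for, with full values for those with a peak, and other pathway genes are named where they had a start peak. Intervals were computed by the Wilson method at 95%. For counts of 0, the upper limit given is the share of 3 counts, which is looser than the Wilson limit given beside it and drawn in the figure of shares. The overlap calls were tested on simulated intervals with known answers. The software was numpy 2.4.6, pandas 2.3.3, scipy 1.17.1 and matplotlib 3.10.9 under Python 3.11.15. Results that need items withheld for evaluation were left out.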

Additional observations from a re-analysis of the deposited data

How the results depend on the processing

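Of 30 alternative counts and medians, 22 stayed within 1.5 times the value reported, 2 of the 30 alternatives having been added after the data were seen. The 4 members with a start peak (15.7% of all protein-coding genes) became 2 with the canonical start only (HUS1 and TIMELESS; 11.7%), and 2 (CDC25C and HUS1) with the peak midpoint required inside the window (10.8%), with a q-value under 0.05 (8.96%), and with only peaks at or above the median −log10 q (8.64%). The 7 members with any peak in or near the gene became 4 with a q-value under 0.05, while the share of all protein-coding genes went from 25.1% to 14.3%. With promoters from 500 bases before to 100 after the start, TTTGAA was found in 9 members (28.1% against 24.8% of all protein-coding promoters), TATAAA in 6 (18.8% against 18.8%) and GGACT in 13 (40.6% against 45.1%), and the shares for CCAAT became 65.6% against 52.7%. A window of 1000 bases added H2AX to the start peaks, and a distance of 5000 bases added CDC25B to the genes with a nearby peak. The end joining count stayed at 0 with windows of 500 and 1000 bases. Using the span of the canonical transcript removed RAD9A from the genes with an internal peak. Pooling before calling leaves no replicate to leave out, and the unknown depth limits what a missing peak can show. No paired analysis was possible because the file holds 1 pooled column of 1 group.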

Other observations

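The share of protein-coding genes with a start peak differed between chromosomes, from 3.12% on Y and 3.91% on X to 24.7% on chromosome 15. The 32 members lie on 15 chromosomes. Averaged over the members, the share on their own chromosome was 16.8%. CHEK2 and XRCC6 lie on chromosome 22, where 10.4% of genes had a start peak (47 of 450), MDC1 and RNF8 on chromosome 6 with 9.92% (104 of 1048), and LIG4 on chromosome 13 with 9.94% (32 of 322). By contrast, TIPIN and TP53BP1 lie on chromosome 15, where 150 of 607 genes had a start peak, and neither did. Chromosome 5 holds RAD1, RAD17, CDC25C and XRCC4 with a background of 20.1%, and of these only CDC25C had a start peak. A part of the chromosome in the members' counts was not tested.

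XRCC5 and XRCC4 lay in 2 of the longer stretches without a peak, of 6328455 bases with 18 protein-coding genes and of 4339812 bases with 5. Of the protein-coding genes without a peak, 4.26% lay in a longer stretch than XRCC5 and 9.60% in a longer one than XRCC4. At the other end, CDC25B lay in a stretch of 25638 bases, and 99.1% of such genes lay in a longer one. ATRIP and CDC25A shared a single stretch of 766257 bases on chromosome 3 with 16 protein-coding genes.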
